A study of Mus musculus with 18 samples.

Results

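Pancreatic islets of 6-week-old C57BL/6J ob/ob mice were compared with those of lean 6-week-old C57BL/6J control mice. The members are all arrays with these descriptions in the larger of the deposited value tables: 2 ob/ob and 2 lean arrays, 4 of the 18 arrays of the series and of the 16 in that table. The other arrays of the table hold 16-week ob/ob and lean C57BL/6J islets, and db/db and lean C57BL/KsJ islets of 6 and 16 weeks, with 2 arrays each. The mice came from the breeding colonies of the Garvan Institute and had free access to food and water, and the islets were picked by hand. The lean animals are called only controls, so their genotype at the ob locus is not known, and no agent was given to any group. The arrays of a group are called replicate 1 and replicate 2, which only names them. Levels are the deposited log2 signals of the Affymetrix Mouse Gene ST array, so that a difference of 1 is a 2-fold change. Wherever 4 values follow a gene, they are lean replicate 1, lean replicate 2, ob/ob replicate 1 and ob/ob replicate 2.

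The ob mutation removes leptin, the hormone by which fat tissue reports energy stores to the brain, and ob/ob mice overeat and become obese and insulin resistant. On the C57BL/6J background their beta cells are known to answer the higher demand with more insulin secretion and a large expansion of beta-cell mass, and overt diabetes stays mild. A beta cell that secretes more insulin passes more preproinsulin through the endoplasmic reticulum, where chaperones, folding enzymes and degradation factors belong to the unfolded protein response. Under sustained demand, beta cells can also lose genes of the mature state, such as the glucose transporter, and gain genes that are normally silent in them, such as Aldh1a3.

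All 4 arrays carried the islet hormones at high and similar levels. Ins2 was at 12.04, 12.01, 12.20 and 11.97, Gcg at 13.30, 13.48, 13.23 and 13.36, and Sst at 13.23, 13.35, 12.98 and 13.28. Ins1 has no cluster of its own in the annotation and was not analysed here. Leptin itself is made by adipocytes, and Lep was below the level cutoff of 2.99 on every array, at 2.13, 2.28, 1.83 and 2.21, so it does not check the genotype labels.

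The arrays within each group were unlike each other. Lean replicate 2 carried a strong intestinal signature. The 25 tested genes of an enterocyte list, markers of the absorptive cells of the gut, averaged 9.96 there against 4.27, 4.41 and 4.25 on lean replicate 1 and the ob/ob arrays. Its sucrase-isomaltase gene Sis was at 10.94 on that array and at 2.36 to 2.56 on the other 3. The 29 tested acinar genes, markers of the enzyme-secreting exocrine pancreas, averaged 8.45, 7.14, 8.78 and 8.29, lowest on the same array. Lean replicate 2 was also the only array of the 4 with high Xist, the RNA of the inactive X chromosome (4.27, 9.46, 3.48 and 2.80), and low Uty, a Y-linked gene (7.54, 2.31, 7.25 and 7.61). Sex is not among the labels used here. Immunoglobulin M heavy chain, Ighm, was high on lean replicate 2 and ob/ob replicate 1 (7.29, 11.27, 10.79 and 6.36). What these differences contribute to each result was not tested, and list counts are therefore given against both lean arrays and, for the lists described at length, also against lean replicate 1 alone. In whole islets, fewer cells of a type and less RNA per cell cannot be told apart.

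**Figure D1:**
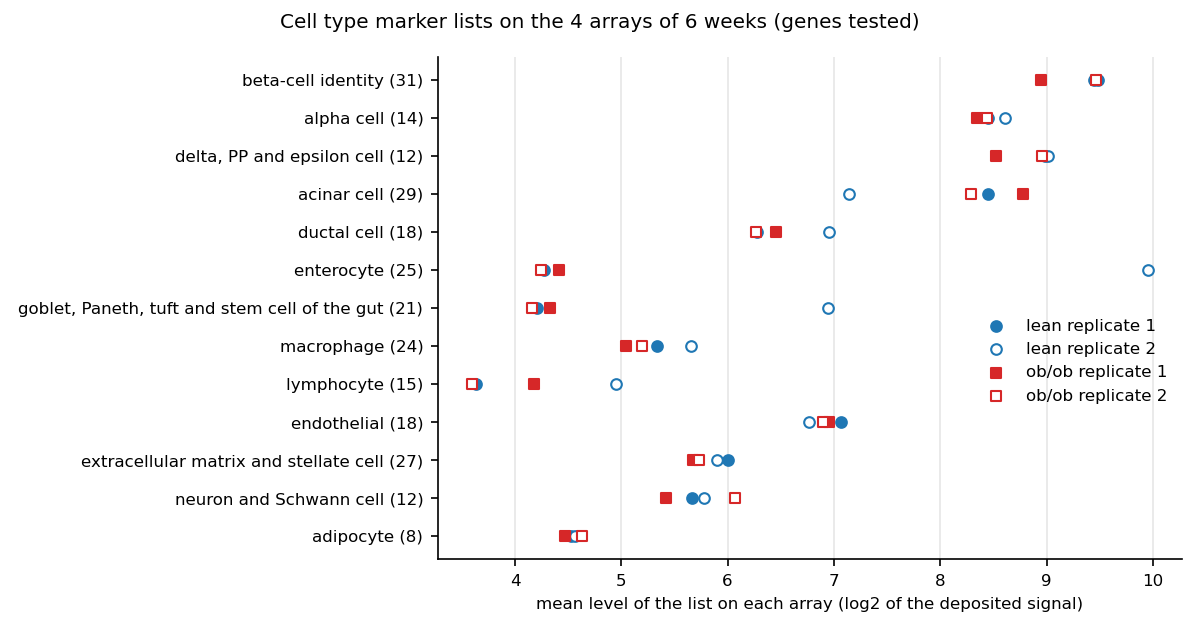
Mean log2 level (x axis) of 13 cell type marker lists (y axis, number of genes tested in parentheses) on each lean array (blue circles) and each ob/ob array (red squares), filled for replicate 1 and open for replicate 2. Lean replicate 2 stands apart in the enterocyte list at 9.96, and ob/ob replicate 1 is lowest in the beta-cell list at 8.95.

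No gene passed the test between ob/ob and lean islets at 6 weeks. Of 15526 genes, 0 (0%) were called by limma at an adjusted p below 0.05, the smallest adjusted p being 0.791. At an unadjusted p below 0.05 there were 955 genes (6.15%), 492 higher (3.17%) and 463 lower (2.98%) in ob/ob islets. Every gene described below as higher or lower is therefore described by its array values and was not called. Nothing in the sample descriptions tells separate animals from pools or repeat preparations, so p-values measure only the spread between these arrays. For 3094 genes (19.9%) both ob/ob arrays lay above both lean arrays, and for 2612 (16.8%) both lay below. The distance between the groups was mostly small: it exceeded 0.5 for 92 genes (0.593%) above and 99 (0.638%) below, and 1 for 3 above and 2 below.

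The absence of calls among the 15526 genes tested depended on which arrays entered. When limma was fitted without ob/ob replicate 2, so that replicate 1 stood alone and was assumed to vary like the other groups, 67 genes were called, 39 higher and 28 lower. Without lean replicate 1, which leaves the lean array with the intestinal signature, 321 genes were called, 319 of them lower in ob/ob islets, and 29 of the 46 tested genes of the 2 gut epithelium lists were among these. Without ob/ob replicate 1 or without lean replicate 2 the count stayed at 0, with 338 and 375 genes at an unadjusted p below 0.05.

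The ob/ob arrays differed in how closely they resembled the 16-week ob/ob arrays, though only slightly in correlations over all clusters. Across all 41034 clusters of the array, ob/ob replicate 1 correlated with the 16-week ob/ob arrays at r = 0.976 and 0.972 and with ob/ob replicate 2 at 0.970. By rank the order was mixed, with rho of 0.944 and 0.936 against 0.942. Replicate 2 correlated with the same 16-week ob/ob arrays at r = 0.970 and 0.967 (rho = 0.940 and 0.934), only slightly lower than replicate 1. With lean replicate 1, replicate 2 correlated at r = 0.980 (rho = 0.954) and ob/ob replicate 1 at r = 0.968 (rho = 0.941). These are correlations over genes, which are not independent replicates. Among tested genes, 1151 were more than 1 away from the lean mean on ob/ob replicate 1 and 473 on replicate 2.

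The difference at 16 weeks rests on arrays whose levels do not enter the 6-week differences. The limma variance is shared over all 16 arrays, however, so genes called at 6 weeks are not independent of the 16-week arrays. Over 15526 genes, ob/ob replicate 1 minus lean replicate 1 followed the 16-week difference with r = 0.685. The 2 differences had the same sign for 74.5% of genes. For ob/ob replicate 2 the same comparison gave r = 0.199 and 60.1%. The difference between the ob/ob arrays themselves, which involves no lean array, followed the 16-week difference with r = 0.602, against -0.042 for the difference between the lean arrays. Of the 413 genes more than 1 higher on ob/ob replicate 1 than on replicate 2, 302 (73.1%) were above both lean arrays in both 16-week ob/ob arrays, compared with 28.2% of all genes. Of the 365 genes more than 1 lower, 272 (74.5%) were below, compared with 33.3%. Of the 67 genes called for replicate 1 alone, 38 of the 39 higher and 26 of the 28 lower lay beyond the lean arrays in the same direction at 16 weeks. All 4 of the 16-week C57BL/6J arrays had high Xist (8.60 to 9.60) and low Uty (2.17 to 2.33), unlike either ob/ob array at 6 weeks.

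**Figure D2:**
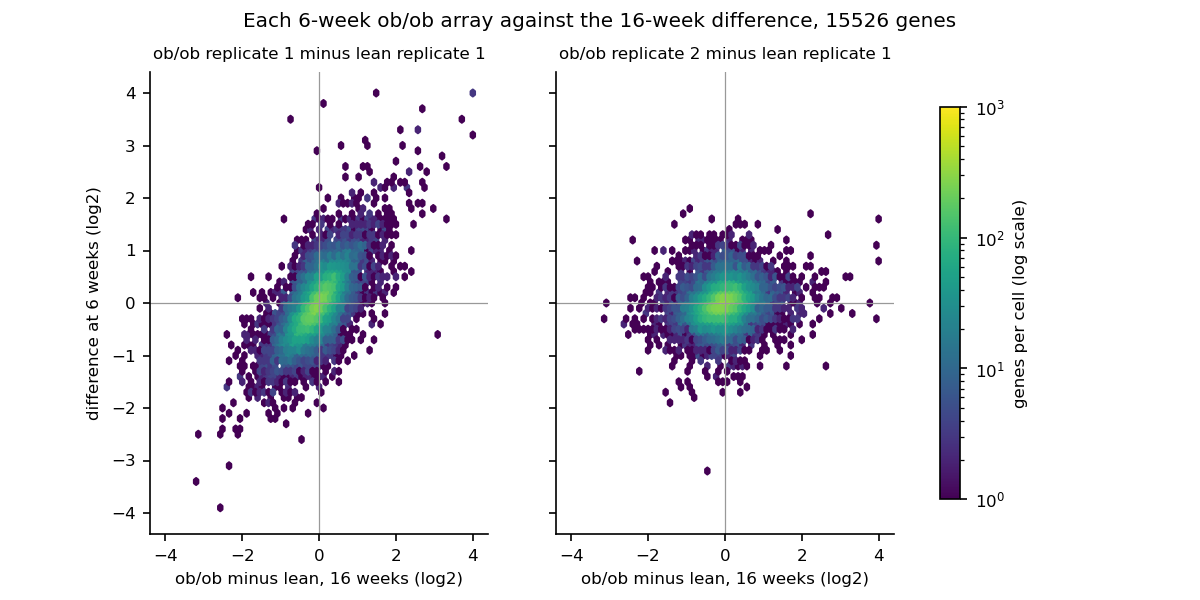
Difference of each 6-week ob/ob array from lean replicate 1 (y axis, log2) against the 16-week ob/ob minus lean difference (x axis, log2) for 15526 genes, coloured by the number of genes on a log scale, with values beyond 4 drawn at 4. The cloud of ob/ob replicate 1 is tilted (r = 0.685) and that of replicate 2 is close to level (r = 0.199).

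Several genes of immature or dedifferentiated endocrine cells were split between the ob/ob arrays. Of the 20 tested genes of this list, 13 were higher on replicate 1 than on replicate 2, beside 46% of all genes. Aldh1a3, a retinaldehyde dehydrogenase that marks dedifferentiated beta cells, was at 4.70, 4.77, 10.52 and 5.43. Replicate 1 was thus 55.2-fold above the lean mean and at the level of the 16-week ob/ob arrays (10.43 and 10.16), whereas replicate 2 was 1.62-fold above it. The mean difference of 3.24 had a standard error of 1.13 and an unadjusted p of 0.0154 by limma. The 16-week difference exceeded it by 2.53 (limma, unadjusted p = 0.143 for the change in difference).

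Serpina7, which encodes thyroxine-binding globulin, was at 7.04, 6.28, 10.58 and 7.02, and the 16-week ob/ob arrays were at 10.59 and 10.55. Gast, which encodes the gut hormone gastrin, was at 5.18, 5.32, 7.13 and 5.23. Cck, cholecystokinin, was at 4.38, 6.68, 7.66 and 4.26, with lean replicate 2, the array with the intestinal signature, high as well. In all 3 genes replicate 1 was the highest of the 4 arrays and replicate 2 lay between the lean arrays or close to the lower of them. Serpina7 and Cck, like Aldh1a3 above, were named in part for a wide difference between the ob/ob arrays, which favours this split. Gucy2c, the guanylate cyclase receptor for guanylin peptides, was at 8.80, 9.73, 11.11 and 8.83. Cd44, the hyaluronan receptor, was at 7.15, 6.81, 8.59 and 7.01. Both again set replicate 1 apart from the other 3 arrays. Gut hormone genes as a group did not share this order: of 12 tested enteroendocrine genes, 6 were higher on replicate 1 than on replicate 2 and 6 lower, and Ghrl, ghrelin, was lowest on replicate 1 (6.25, 7.17, 5.26 and 6.70). Of the 20 genes, 6 lay above both lean arrays in both ob/ob arrays and 4 below, beside 19.9% and 16.8% of all genes, with a median difference of 0.32 beside -0.00 for all genes. Taken against lean replicate 1 alone, 10 lay above and 5 below, beside 30.2% and 36.1%. The list also holds Hk1, the low-Km hexokinase that beta cells normally keep low, which was lower in both ob/ob arrays (5.29, 5.38, 4.36 and 4.87).

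Most of the other genes described for their wide separation at both ages had the same form. Dapl1 was at 9.04, 8.25, 11.67 and 9.51. C1qtnf1, a secreted C1q/TNF-related protein also named for a wide difference between the ob/ob arrays, was at 3.95, 4.21, 7.65 and 4.37. Gsto2, an omega-class glutathione transferase, was at 5.01, 4.55, 7.70 and 5.14. In these genes replicate 2 sat slightly above the higher lean array and replicate 1 far above it. Lmo1, a LIM-only transcriptional regulator, was at 3.23, 3.72, 6.20 and 4.09, and Ttyh1, a chloride channel, at 5.34, 4.86, 7.83 and 5.73. Aass, an enzyme of lysine breakdown chosen for the wide difference between the ob/ob arrays, was at 5.12, 3.60, 8.35 and 4.85, so that replicate 2 lay between the lean arrays. Among lower genes, Nnat, neuronatin, was at 7.68, 8.09, 4.59 and 7.28, Cdh7, a cadherin, at 6.69, 6.46, 4.29 and 6.21, and Kcng3, a modifier subunit of potassium channels, at 7.48, 7.20, 4.95 and 6.99. In these 3 genes replicate 1 was far from the lean arrays, below the 16-week ob/ob levels of 5.38 and 5.65 for Nnat, 4.53 and 5.14 for Cdh7, and 5.53 and 6.06 for Kcng3. Replicate 2 was clearly lower as well in Hpse, heparanase (5.48, 5.56, 3.57 and 4.56), and Il18, an inflammatory cytokine (5.80, 9.12, 4.27 and 5.09).

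A pair of predicted genes, chosen after their values were seen, went furthest. 1810009J06Rik was at 3.08, 3.07, 9.74 and 4.16, and Gm2663 at 2.46, 3.16, 9.36 and 4.11. In the GRCm38.p6 gene table they lie on chromosome 6 at 40964772 to 40968427 and 40995822 to 40999479, upstream of the trypsinogen genes Try4, Try5, Prss1 and Prss2 (41302272 to 41525079). The 16-week ob/ob arrays were at 9.16 and 8.06 for the first and 8.88 and 7.61 for the second, with lean arrays at 2.97 to 3.62. Try4 did not share the pattern (10.48, 8.45, 11.06 and 10.22). Genes of this cluster are alike in sequence, so probes may read more than one of them.

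**Figure D3:**
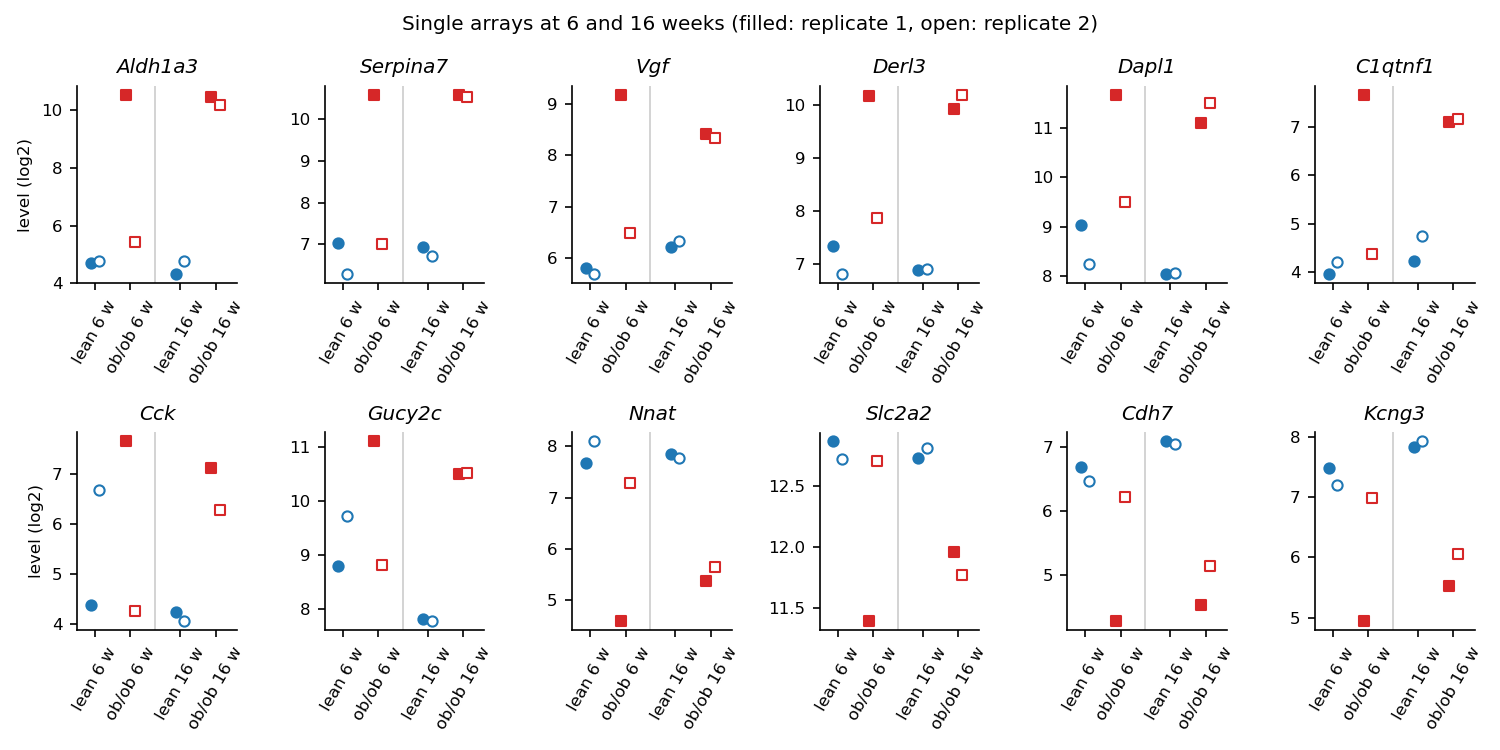
Log2 level (y axis) of 12 genes on each lean array (blue circles) and ob/ob array (red squares) at 6 weeks and 16 weeks (x axis), filled for replicate 1 and open for replicate 2, with a separate y axis per gene. At 6 weeks ob/ob replicate 1 sits near or beyond the 16-week ob/ob arrays in each of the 12 genes, for example at 10.52 for Aldh1a3, while replicate 2 is closer to the lean arrays. Several of the 12 were named for a wide difference between the ob/ob arrays or for separation at both ages, which favours this pattern.

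Genes of the adaptive unfolded protein response had higher group means in ob/ob islets for most members. Of its 34 tested genes, 30 had a higher mean in ob/ob islets, beside 49.6% of all genes, and 14 lay above both lean arrays in both ob/ob arrays, beside 19.9% of all genes, whereas 0 lay below both, beside 16.8%. Against lean replicate 1 alone 17 lay above and 3 below, beside 30.2% and 36.1% of all genes. The median difference was 0.35, made of 0.43 in replicate 1 and 0.17 in replicate 2. The list's genes were higher on lean replicate 1 than on lean replicate 2 in 30 of 34 cases, beside 62% of all genes, and the acinar list, whose cells also secrete heavily, was higher there too. Against lean replicate 1 the medians were 0.35 and 0.12.

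Syvn1, the ubiquitin ligase of endoplasmic reticulum-associated degradation, was at 7.80, 7.77, 8.49 and 8.46. Both ob/ob arrays were apart from both lean arrays by a margin many times the spread within either group, a difference of 0.69 with a standard error of 0.17 (unadjusted p = 0.00151 by limma). Dnajb9, a co-chaperone of the chaperone BiP, was at 9.97, 9.94, 10.63 and 10.87. Manf, a secreted protein that is induced by stress of the endoplasmic reticulum, was at 5.57, 5.44, 6.42 and 6.07. Sec61a1, the channel through which nascent secretory proteins enter the endoplasmic reticulum, was at 11.60, 11.53, 11.93 and 12.04. In each of these 4 genes the ob/ob arrays did not overlap the lean arrays, and in Dnajb9 and Sec61a1 it was replicate 2 that was higher. Derl3, a derlin of the same degradation pathway, was at 7.34, 6.81, 10.17 and 7.88, 8.53-fold above the lean mean in replicate 1 and 1.74-fold in replicate 2. Hspa5, BiP itself, was at 9.95, 9.74, 10.33 and 10.13.

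**Figure D4:**
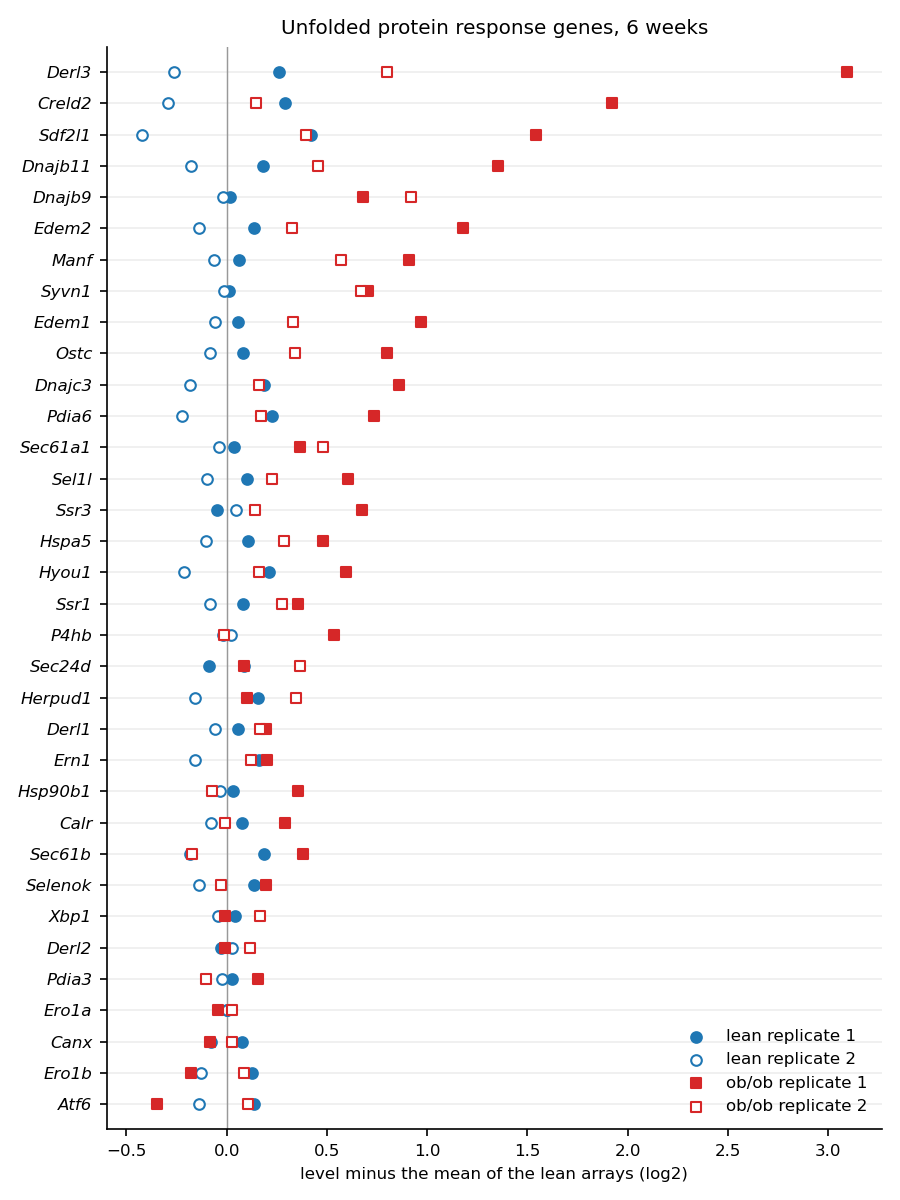
Level of each of the 34 tested unfolded protein response genes (y axis) minus the mean of the lean arrays (x axis, log2), for each lean array (blue circles) and each ob/ob array (red squares), filled for replicate 1 and open for replicate 2. Derl3 reaches furthest in ob/ob replicate 1, and Syvn1 and Dnajb9 show both ob/ob arrays clear of both lean arrays.

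Many genes of this response carry the endoplasmic reticulum stress response element, the letters CCAAT and CCACG with 9 bases of any kind between them, near their start. RefSeq windows of 300 bases (250 before and 50 after the start) on GRCm38.p6 were searched on both strands. Of the 34 genes, 28 had a window and 10 of these held the element, compared with 37 of all 27025 genes with a window (0.137%). The windows of Syvn1 (chr19:6046326-6046625, plus strand), Derl3 (chr10:75893148-75893447, plus strand) and Hspa5 (chr2:34771840-34772139, plus strand) are shown because these carriers are described above. Capitals mark the element, which is on the plus strand in Syvn1 and Hspa5 and on the minus strand in Derl3:
Syvn1: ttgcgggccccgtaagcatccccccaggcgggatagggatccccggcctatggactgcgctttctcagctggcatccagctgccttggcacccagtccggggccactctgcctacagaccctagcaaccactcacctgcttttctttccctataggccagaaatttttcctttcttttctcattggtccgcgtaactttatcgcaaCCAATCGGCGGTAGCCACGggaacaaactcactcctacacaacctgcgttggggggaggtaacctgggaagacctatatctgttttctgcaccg
Derl3: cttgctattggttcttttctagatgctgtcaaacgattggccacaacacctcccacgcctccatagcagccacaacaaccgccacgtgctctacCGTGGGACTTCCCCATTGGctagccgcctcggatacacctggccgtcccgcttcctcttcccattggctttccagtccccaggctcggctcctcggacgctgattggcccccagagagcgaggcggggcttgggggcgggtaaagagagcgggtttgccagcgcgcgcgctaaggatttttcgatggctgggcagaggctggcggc
Hspa5: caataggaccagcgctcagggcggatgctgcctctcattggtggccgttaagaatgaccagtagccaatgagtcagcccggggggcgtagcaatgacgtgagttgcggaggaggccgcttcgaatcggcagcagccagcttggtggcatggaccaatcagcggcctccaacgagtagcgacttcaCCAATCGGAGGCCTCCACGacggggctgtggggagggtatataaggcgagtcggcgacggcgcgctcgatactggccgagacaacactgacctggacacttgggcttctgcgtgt
Carriers and other genes of the list were set side by side. Of the 10 carriers 3 lay above both lean arrays in both ob/ob arrays, and of the 18 other list genes with a window 7 did, with median differences of 0.42 and 0.24. A second known motif, TGACGTGG, was found in 1 of the 28 windows and in 0.714% of all genes. A match is a description of the letters in these windows only.

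Genes of the secretory pathway beyond this response included several with higher levels. Srprb, a subunit of the receptor that docks ribosomes at the endoplasmic reticulum, was at 8.97, 8.54, 9.87 and 9.51, a difference of 0.93 with a standard error of 0.22. Of 32 tested genes of granules and prohormone processing, 25 had a higher mean in ob/ob islets, beside 49.6% of all genes, and 11 lay above and 2 below, beside 19.9% and 16.8%. The median difference was 0.14 (0.28 in replicate 1 and 0.08 in replicate 2). Against lean replicate 1 alone 11 lay above, near the 30.2% of all genes, and 6 below, beside 36.1%, with a median of -0.016 in replicate 2. Vgf, a precursor of granule peptides, was at 5.81, 5.68, 9.17 and 6.49. Sec11c, a catalytic subunit of signal peptidase, was at 9.40, 9.10, 10.61 and 9.41, so that replicate 2 barely exceeded lean replicate 1. Ssr1, part of the translocon-associated complex, was at 10.13, 9.96, 10.40 and 10.32. Slc39a7, a zinc transporter of the endoplasmic reticulum and Golgi membranes, was at 9.03, 8.84, 9.59 and 9.38. Genes of the ATF4 branch, which restrains translation and induces amino acid synthesis under stress, had a median difference of 0.14, 11 of 28 above and 3 below, beside 19.9% and 16.8% of all genes. The medians were 0.13 in replicate 1 and 0.20 in replicate 2. With lean replicate 1 alone as the control, 13 lay above and 7 below, beside 30.2% and 36.1%.

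Genes of DNA replication and mitosis were higher in replicate 1 than in replicate 2. Of 38 tested genes, 37 were higher on ob/ob replicate 1 than on replicate 2, beside 46% of all genes. The medians of replicates 1 and 2 were 0.51 and -0.03 against the lean mean, and 0.65 and 0.14 against lean replicate 1. Lean replicate 2, the array with the intestinal signature, was above lean replicate 1 in 29 of the 38 genes, beside 38% of all genes. In both ob/ob arrays 6 genes lay above both lean arrays and 0 below, beside 19.9% and 16.8% of all genes. When only lean replicate 1 was used, 25 lay above and 0 below, beside 30.2% and 36.1%. E2f1, a transcription factor of S phase entry, was at 6.62, 6.27, 7.60 and 6.85, a difference of 0.78 with a standard error of 0.22. Mcm2, a subunit of the replicative helicase, was at 6.83, 6.54, 8.24 and 6.72, and Rrm2, a subunit of ribonucleotide reductase, at 4.01, 3.93, 5.66 and 4.13. Mki67, the proliferation marker, was at 6.31, 6.91, 7.04 and 6.36 and did not separate the groups. At 16 weeks 35 of the 38 genes lay above both lean arrays, with a median difference of 1.06. Cdkn2a, which encodes the cell cycle inhibitor p16, was at 4.15, 4.38, 4.75 and 4.74, higher in both ob/ob arrays.

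Genes of mature endocrine cells were lower in ob/ob replicate 1 and close to lean levels in replicate 2. Of the 31 tested genes of beta-cell identity, 25 were lower on replicate 1 than on replicate 2, beside 54% of all genes, with medians of -0.27 and 0.01 against the lean mean. Both ob/ob arrays lay below both lean arrays for 8 of the 31, beside 16.8% of all genes, and above for 3, beside 19.9%. When compared with lean replicate 1 alone, 17 lay below and 3 above, beside 36.1% and 30.2%. Slc2a2, the GLUT2 glucose transporter, was at 12.86, 12.71, 11.40 and 12.70, and its 16-week ob/ob levels were 11.96 and 11.77. Slc30a8, the granule zinc transporter, was at 12.54, 12.57, 11.60 and 12.50. Trpm5, a calcium-activated cation channel, was at 6.31, 6.54, 4.49 and 5.83, the one of these with replicate 2 clearly below the lean arrays as well. The transcription factors moved less: Mafa was at 9.68, 9.70, 8.92 and 10.04, Pdx1 at 9.46, 9.06, 9.00 and 9.25, and Nkx6-1 at 10.59, 10.38, 10.23 and 10.64. Each was lowest in replicate 1, and for Mafa and Nkx6-1 replicate 2 was the highest of the 4 arrays. Iapp, the peptide released with insulin, differed little, at 12.57, 12.55, 12.70 and 12.57.

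The other endocrine lists followed the same order. The 14 alpha-cell genes had medians of -0.51 in replicate 1 and -0.07 in replicate 2, and the 12 genes of delta, PP and epsilon cells -0.42 and -0.02. Slc7a2, an arginine transporter, was at 10.01, 10.13, 9.25 and 9.87. Shisal2b was at 6.79, 6.71, 5.34 and 6.50. In both genes the ob/ob arrays lay below the lean arrays, replicate 2 by a small margin. Etv1, a member of both lists, was instead higher, with replicate 2 barely above lean replicate 1 (9.62, 9.52, 10.32 and 9.63). In each list 2 genes lay below both lean arrays in both ob/ob arrays and 1 above, beside 16.8% and 19.9% of all genes. Of 29 genes of glucose sensing and excitability, 8 lay below both lean arrays and 4 above, beside 16.8% and 19.9% of all genes, and 16 below lean replicate 1 alone and 5 above, beside 36.1% and 30.2%. Gpd2, the mitochondrial glycerol phosphate dehydrogenase, was at 9.46, 9.46, 8.34 and 9.27, while Scn3a, a voltage-gated sodium channel, was higher at 7.84, 7.45, 8.97 and 7.99.

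The 18 tested genes of the circadian clock had a lower median in replicate 1 (-0.53) and one at lean levels in replicate 2 (-0.02). In both ob/ob arrays 2 lay below both lean arrays and 4 above, beside 16.8% and 19.9% of all genes. Against lean replicate 1 alone 11 lay below and 7 above, beside 36.1% and 30.2%, with medians of -0.49 and -0.06. Nr1d1, the nuclear receptor REV-ERB alpha, was at 9.47, 9.75, 8.15 and 9.43, and Nr1d2, its paralog, at 8.68, 8.23, 7.31 and 8.25. Nfil3, a repressor that acts in opposite phase to these, was higher in both ob/ob arrays (6.33, 6.47, 7.07 and 7.09). At 16 weeks the list's median was -0.52. The hour at which islets were collected is not among the labels used here.

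**Figure D5:**
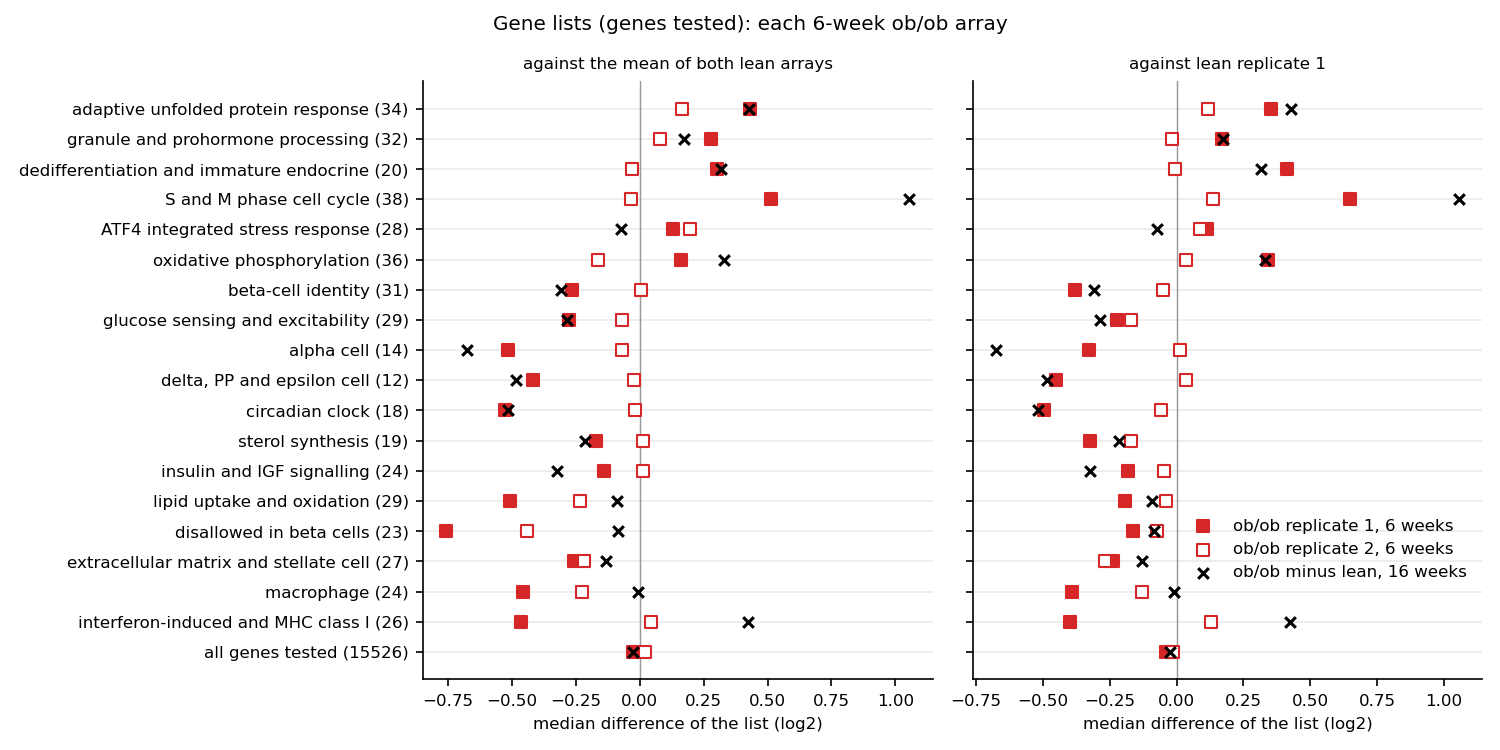
Median difference of each gene list (y axis, genes tested in parentheses) for ob/ob replicate 1 (filled red squares) and replicate 2 (open red squares) of 6 weeks against the mean of both lean arrays (left) or lean replicate 1 (right), on the x axis in log2, with the 16-week median as a black cross in both panels. The unfolded protein response list is above 0 in both ob/ob arrays on both panels, while the beta-cell, alpha-cell and clock lists are below 0 mainly in replicate 1.

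Metabolic lists depended on the lean array. Of 29 genes of lipid uptake and oxidation, 26 had a lower mean in ob/ob islets, beside 50.4% of all genes, and 14 lay below both lean arrays, beside 16.8%, with a median of -0.35. Lean replicate 2, the array rich in enterocyte genes, was above lean replicate 1 for 27 of the 29, beside 38% of all genes. Against lean replicate 1 the list's median was -0.15. Cpt1a, which admits fatty acids to the mitochondria, was at 8.87, 9.25, 8.44 and 8.28, below both lean arrays in both ob/ob arrays. Plin1, a lipid droplet coat protein, was higher in ob/ob islets (3.17, 3.32, 3.70 and 4.44). Likewise 13 of 23 genes that beta cells normally keep silent lay below both lean arrays, and 0 above, beside 16.8% and 19.9% of all genes. The median of -0.60 shrank to -0.12 against lean replicate 1, where 14 lay below and 4 above, beside 36.1% and 30.2%. Oxidative phosphorylation genes had a median of -0.04 against both lean arrays and 0.20 against lean replicate 1. Of the 36, 31 were higher on ob/ob replicate 1 than on replicate 2, beside 46% of all genes. In all 3 lists the median depended on which lean array was used.

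Single metabolic genes were apart on all arrays. Hmgcs1, an early enzyme of cholesterol synthesis, was at 9.30, 8.99, 7.88 and 8.98, and Stard4, a sterol carrier, at 6.57, 6.42, 5.74 and 6.05. Both were lower in ob/ob islets, with replicate 2 almost level with lean replicate 2 for Hmgcs1. Pnpla3, a lipogenic lipase, was higher (4.35, 4.27, 5.70 and 4.76), and Mlxipl, the carbohydrate response factor ChREBP, was lower (10.43, 10.34, 9.46 and 10.18). Nqo1, a quinone reductase of the oxidative stress response, was lower at 5.77, 6.58, 4.62 and 5.39, whereas Osgin1, another gene of that response, was higher at 6.51, 7.06, 7.82 and 7.26. Sod3, the extracellular superoxide dismutase, was at 5.06, 5.07, 6.97 and 5.32, and Mt3, a metallothionein, at 5.13, 5.32, 7.28 and 5.82. The last pair were higher in both ob/ob arrays and much higher in replicate 1.

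Lists of non-endocrine cells differed in direction and in how far they rested on the lean array. The acinar list had a higher mean in 26 of 29 genes and a median of 0.91, which was 0.01 against lean replicate 1, and 4 genes lay above both lean arrays in both ob/ob arrays and 1 below, beside 19.9% and 16.8% of all genes. Of 27 matrix and stellate cell genes 9 lay below both lean arrays in both ob/ob arrays and 0 above, beside 16.8% and 19.9%, with medians of -0.26 and -0.22 in the 2 arrays, and against lean replicate 1 the median was -0.23, with 18 below and 0 above, beside 36.1% and 30.2%. Col3a1, a fibrillar collagen, was at 6.28, 6.23, 5.57 and 5.64, and Col1a1, another, at 6.28, 5.90, 5.48 and 5.57. This was a list in which both ob/ob arrays were equally lower. Of 24 macrophage genes 10 lay below and 1 above, beside 16.8% and 19.9%, with a median of -0.36. Against lean replicate 1 the median was -0.18, with 11 below and 3 above, beside 36.1% and 30.2%. C1qc, a complement subunit made by macrophages, was at 4.97, 4.99, 4.59 and 4.21, and Ms4a7 at 5.03, 5.10, 4.32 and 4.83. Of 18 endothelial genes 3 lay above, near the 19.9% of all genes, and 0 below, with a median of 0.01. Against lean replicate 1 alone 11 lay below and 3 above, beside 36.1% and 30.2%, with a median of -0.15. Interferon-induced and antigen presentation genes were lower on replicate 1 than on replicate 2 in 24 of 26 cases, beside 54% of all genes. Psmb9, an immunoproteasome subunit, was among them (5.77, 6.38, 4.19 and 5.34).

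Ob/ob replicate 2 was in turn highest in genes of nerve cells. Vip, a neuropeptide, was at 8.36, 7.66, 6.26 and 9.22, Chrna3, a nicotinic receptor subunit of autonomic neurons, at 6.46, 6.42, 4.82 and 7.45, and Slc5a7, the choline transporter of cholinergic nerve endings, at 4.56, 4.51, 2.77 and 5.75. Fabp7, a fatty acid binding protein of glia, was at 6.09, 5.67, 4.55 and 7.07. In all 4 the lean arrays lay between the ob/ob arrays, so that the mean of the groups hides the split. All 4 are among the genes with the widest difference between the ob/ob arrays, by which genes were named, so their split follows from that choice. Cyp4f39, named by the same rule, had replicate 2 between the lean arrays (8.57, 8.06, 5.17 and 8.25). Of 12 tested nerve and Schwann cell markers, 11 were higher on replicate 2 than on replicate 1, beside 54% of all genes. The list means were 5.66, 5.78, 5.42 and 6.07. Replicate 1 in contrast was high in Ighm, as given above, together with lean replicate 2. Cxcl13, the B-cell attracting chemokine, was at 8.21, 9.42, 8.79 and 4.99, so that ob/ob replicate 2 alone was low. Ighm and Cxcl13 were also named for a wide difference between the ob/ob arrays.

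Genes were also chosen for a small unadjusted p with both ob/ob arrays beyond both lean arrays. Among higher ones, Srm, spermidine synthase, was at 8.57, 8.38, 9.67 and 9.61, a difference of 1.16 with a standard error of 0.25. The 16-week ob/ob arrays were at 9.91 and 9.81. Fh1, fumarate hydratase of the citric acid cycle, was at 9.27, 9.35, 10.13 and 9.90, and Fen1, the flap endonuclease of DNA replication, at 4.57, 4.82, 6.06 and 5.34. Nol3, an inhibitor of apoptosis, was at 5.32, 5.39, 6.09 and 6.08. Kcnmb3, a regulatory subunit of calcium-activated potassium channels, was at 2.84, 3.30, 4.06 and 3.94. For all 5 genes both ob/ob arrays cleared the lean arrays by more than 0.5. Ptcra, a chain of the pre-T-cell receptor, was at 2.94, 2.76, 4.38 and 3.82, and Slamf6, a lymphocyte receptor, at 3.05, 2.47, 4.45 and 3.99, both near the level cutoff.

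Among lower genes with a name, the smallest unadjusted p by limma (0.000482) belonged to Mir691, a microRNA gene on chromosome 16 (hairpin 74341990 to 74342067, minus strand, GRCm38.p6). It was at 4.34, 4.33, 2.96 and 2.85, a difference of -1.43 with a standard error of 0.29, with 16-week lean arrays at 3.05 and 4.12 and ob/ob arrays at 2.22 and 2.56. Where the probes of this cluster lie was not examined, so the value cannot be taken to measure the mature microRNA. The RefSeq sequence of the mature form is shown with its seed, bases 2 to 8, in capitals because it names the gene's product:
mmu-miR-691: aUUCCUGAagagaggcagaaaa
Nrip1, the nuclear receptor corepressor RIP140, was at 7.01, 7.24, 6.47 and 6.21, lower in both ob/ob arrays by more than the spread within either group. Acy1, an aminoacylase, was at 5.66, 6.78, 4.69 and 5.01, Ccl27a, a chemokine, at 5.56, 5.55, 4.05 and 4.92, and Aldh1b1, a mitochondrial aldehyde dehydrogenase, at 5.91, 6.26, 5.32 and 5.15. Lair1, an inhibitory receptor of leukocytes, was at 4.57, 4.66, 3.50 and 3.62, and Cdh11, a cadherin of mesenchymal cells, at 5.59, 6.60, 4.16 and 4.65. Lean replicate 2 was the highest array for Acy1 and Cdh11, as it was for the gut lists. Lingo3 and Insyn2a were also lower in both ob/ob arrays (5.04, 4.92, 3.57 and 4.22, and 4.70, 4.51, 3.41 and 3.90).

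Genes of leptin and cytokine signalling gave few differences. Lepr, the leptin receptor, was near the level cutoff at 3.59, 2.94, 2.73 and 2.94. Jak2, the kinase that the receptor activates, was at 8.12, 8.57, 7.68 and 7.89, and Cish, a feedback inhibitor of cytokine receptors, at 4.92, 5.24, 4.42 and 4.49, both lower in the ob/ob arrays. Socs2, another such inhibitor, was low only in replicate 1 (7.63, 7.49, 5.95 and 7.68). Of the 15 tested genes 4 lay below both lean arrays in both ob/ob arrays and 2 above, beside 16.8% and 19.9% of all genes, with a median of -0.16. Of 24 insulin and IGF signalling genes 5 lay below, near that share, and 1 above, and against lean replicate 1 alone 14 lay below and 2 above, beside 36.1% and 30.2%. Rictor, a component of the second mTOR complex, was at 8.13, 7.77, 6.99 and 7.65.

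The 6-week difference was tested against that of other ages and models. By limma's contrast of contrasts, 0 of 15526 genes (0%) changed their ob/ob difference between 6 and 16 weeks at an adjusted p below 0.05, with 430 (2.77%) at an unadjusted p below 0.05. The ob/ob difference at 6 weeks was set against the db/db difference of the same age in the same way, and 0 genes (0%) differed, with 349 (2.25%) at an unadjusted p below 0.05. That contrast also differs in strain and in Xist. Xist was high on both db/db arrays (8.74 and 8.46), low on both ob/ob arrays (3.48 and 2.80) and split on the lean C57BL/KsJ arrays (2.63 and 9.40). What strain and these levels contribute was not tested. Of the 3094 genes above both lean arrays at 6 weeks, 1688 (54.6%) were so at 16 weeks, beside 21.6% of other genes, and they made up 38.6% of the genes above at 16 weeks. In db/db islets of 6 weeks 1176 (38.0%) were so, beside 17.8% of other genes, or 34.7% of those above there. Of the 2612 genes below, 1521 (58.2%) were so at 16 weeks, beside 28.2% of other genes, or 29.4% of those below at 16 weeks. In db/db islets 1193 (45.7%) were so, beside 24.3% of other genes, or 27.5% of those below there. The opposite direction at 16 weeks was found for 254 (8.21%) of the 3094 genes, beside 39.5% of other genes. For the 2612 genes it was 200 (7.66%), beside 32.3% of other genes. Star, the carrier that brings cholesterol into mitochondria, was one of the 254. It was higher in ob/ob islets at 6 weeks (3.73, 3.88, 4.74 and 4.25) and lower at 16 weeks (3.77 and 3.74 in lean, 3.24 and 3.38 in ob/ob islets).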

How the data were processed

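The deposited values are log2 signals per transcript cluster, normalized between arrays by the authors; MAS5, RMA and Partek are the tools listed in the submitters' processing notes, with no version, and the background correction is not given in the sources used here. Per the labels' protocols, total islet RNA was hybridised as biotinylated cRNA. Of 41034 clusters, 23521 have 1 gene in the platform annotation, 1814 several and 15699 none. Only clusters with 1 gene were named, the brightest cluster standing for a gene, which gave 22180 genes. Genes with a mean above the 30th percentile of log2 2.99 were tested (15526). limma 3.58.1 (R 4.3.3) fitted 1 mean for each of 8 groups over 16 arrays (8 residual degrees of freedom), with Benjamini-Hochberg adjustment and calls at 0.05. The number of arrays limits the precision. In data simulated at this size, 43.2% of genes changed by a log2 of 1 and 82.4% of those changed by 2 were called. The simulated noise was independent for each gene and array, and each change was equal in both ob/ob arrays. The real arrays of a group differ in many genes at once, so these shares may not hold for them.

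The 43 gene lists hold 94 members without a cluster of their own. The members, lists and comparisons were chosen with earlier results of these data known. Genes were named by rule: the smallest p with both ob/ob arrays beyond both lean arrays, the widest differences between replicates, up to 4 members per list by p, the widest separation at both ages, and a fixed set. Promoter windows and the microRNA come from RefSeq tables on GRCm38.p6. Alternatives covered filters, scaling, covariates, the arrays fitted and each array left out. The other 2 arrays of the series lie in a separate table and were not used here.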

Additional observations from a re-analysis of the deposited data

Results flagged for a closer look

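Star moved in opposite directions at the 2 ages: every ob/ob array lay above both lean arrays at 6 weeks (0.69 on the log2 scale) and below both at 16 weeks (-0.45). limma's adjusted p for the change in difference was 1. With 2 arrays in a group, no array was tested as standing apart from its group.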

How the results depend on the processing

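No paired analysis was possible because the arrays carry no replicate numbers shared between groups. With all arrays, 15526 genes were tested in each comparison. For ob/ob against lean islets at 6 weeks, the count of 0 called genes became 321 without lean replicate 1 and 67 without ob/ob replicate 2. Without lean replicate 1, 158 genes were called for the change between ages and 190 for ob/ob against db/db islets. Leaving out any other array, and every other setting run, gave 0 calls in all 3 comparisons, so single arrays decide the counts. The cause was not tested. Other scalings moved the median difference of all genes by less than 0.1.

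The signs of 18 named genes, none called with all arrays, also turned (log2, ob/ob minus lean). Over the fits that left out arrays, the pair of ob/ob replicate 1 and lean replicate 2 (chosen after seeing the data) among them, the difference ranged for Aass from -0.27 to 3.99, for Cck from -1.27 to 2.13, for Cd44 from -0.14 to 1.61, for Chrna3 from -1.62 to 1.01, for Fabp7 from -1.33 to 1.19, for Gast from -0.022 to 1.88, for Ghrl from -1.45 to 0.45, for Gucy2c from -0.44 to 1.84, and for Iapp from -0.0013 to 0.14. It ranged likewise for Mafa from -0.77 to 0.36, for Mcm2 from -0.12 to 1.55, for Mki67 from -0.25 to 0.43, for Nkx6-1 from -0.25 to 0.15, for Pdx1 from -0.34 to 0.063, for Serpina7 from -0.022 to 3.92, for Slc5a7 from -1.77 to 1.21, for Socs2 from -1.61 to 0.12, and for Vip from -1.75 to 1.21. Apart from left-out arrays, Fabp7 turned to 0.034 with quantile normalization and Iapp to -0.049 with the Xist level as a term. Of the genes named here, 17 were called without ob/ob replicate 2, among them Cd44, Mcm2 and Serpina7 of those just listed, and 5 without lean replicate 1.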
